A study of Mus musculus with 6 samples.

Results

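Cellular iron uptake, storage and export were described through 10 genes, chosen by name for their roles: Tfrc, Steap3, Slc11a2 and Slc11a1 for uptake and transport, Fth1, Ftl1 and Ncoa4 for storage, Slc40a1 for export, and Aco1 and Ireb2 for control by iron. All 10 were found among the 55487 genes of the table, and all 10 were among the 15020 genes tested, those whose normalized counts averaged 10 or more. The samples were described as GFP+ bone marrow cells from the femora and tibiae of mice carrying an MLL-AF9 leukemia (the retroviral fusion oncogene MLL-AF9, MA9 in the genotype). Total bone marrow leukemic cells, 1000 per recipient, came from CD45.2(+) Mx1-Cre Brd9fl/fl MA9 donors. They went by vein into CD45.1(+) CD45.2(-) recipients of the C57BL/6 strain that, per the labels, had been irradiated 2 times with 450 cGy. From the following day each recipient was given 3 injections, on alternate days, of either PBS (3 libraries) or 20 mg/kg pIpC (3 libraries), and cells were taken 10 days after injection.

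Both groups carried Mx1-Cre and the floxed Brd9 alleles, and the injection was the only difference between them that the labels give. The Mx1 promoter is driven by interferon, and pIpC is an interferon inducer, so Cre activity and the interferon response to pIpC cannot be told apart in this design. The ages and sexes of the mice were not given in the labels, nothing in the labels says that the libraries of a group came from separate animals, and p-values therefore measure only the spread between these libraries, which may be technical. The study's methods give an age for the recipients. For this transplant they name sublethal irradiation with 450 cGy, whereas the labels give 2 times 450 cGy, and which applied was not settled. The labels name a GFP+ gate, whereas the methods of the study describe sorted mouse cells as lineage-negative and c-Kit+. For the comparison of pIpC with PBS, the study's results name c-Kit+ bone marrow cells, without naming a lineage gate. Which gate applied here was not settled. A lineage-negative gate would remove most mature neutrophils, red cell precursors, B cells and T cells, whose markers are given below. Brd9, the targeted gene, had normalized counts of 1927, 1946 and 1632 in the PBS libraries and 2036, 2263 and 2011 in the libraries labelled pIpC. Brd9 was therefore not lower in the libraries labelled pIpC (log2 fold change 0.20 ± 0.13 SE, adjusted p = 0.259 by limma), and a gene-level count does not separate excised exons from the others. Since the gene-level check did not bear out the label, direction is given throughout for the libraries labelled pIpC.

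Most cells take up iron as transferrin bound to transferrin receptor 1, the product of Tfrc. In the endosome the iron is released, reduced by Steap3 and carried to the cytosol by Slc11a2 (DMT1). Iron not used at once is stored in ferritin, a shell of heavy (Fth1) and light (Ftl1) chains, which Ncoa4 delivers to the lysosome for breakdown, and surplus iron leaves through ferroportin (Slc40a1), the only known cellular iron exporter. The 2 iron regulatory proteins, encoded by Aco1 (IRP1) and Ireb2 (IRP2), bind hairpins called iron-responsive elements when iron is scarce, which blocks translation from a 5′ element and protects the transcript from decay at 3′ elements. In the marrow the pathway is best known in red cell precursors, which take up much iron for heme, and in macrophages, which recycle it.

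The elements are shown because the iron regulatory proteins act through them. The strict search used here does not find every known element, and an iron-responsive element is known in the 3′ UTR of some Slc11a2 transcripts, in which it found no match. GENCODE M21 transcripts (GRCm38, the build named in the labels) were searched on the sense strand for an unpaired C, 5 bases, the loop CAGTGN, and 5 bases that pair with the first 5 (G-T pairs allowed), and each match is printed as the 29 bases around it, 5′ to 3′, with the 6 loop bases in capitals. Of the 10 members, 4 held at least 1 match. In the 5′ UTRs there was a single element in each of Fth1 (chr19:9982732-9982760, + strand), Ftl1 (chr7:45459779-45459807, − strand) and Slc40a1 (chr1:45925465-45925493, − strand).
Fth1: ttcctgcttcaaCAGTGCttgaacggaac
Ftl1: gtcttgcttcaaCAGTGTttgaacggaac
Slc40a1: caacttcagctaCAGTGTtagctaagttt
Tfrc held 4 in its 3′ UTR on the + strand, at chr16:32631219-32631247, chr16:32631598-32631626, chr16:32631663-32631691 and chr16:32631710-32631738, listed below in that order.
Tfrc element 1: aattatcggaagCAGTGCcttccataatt
Tfrc element 2: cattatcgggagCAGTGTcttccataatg
Tfrc element 3: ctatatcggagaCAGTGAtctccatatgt
Tfrc element 4: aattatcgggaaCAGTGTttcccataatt
The same search matched 31 of 20916 genes with an annotated 5′ UTR (0.148%) and 129 of 21045 with a 3′ UTR (0.613%). Gene-level counts do not measure translation or the use of these elements.

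The libraries held 19277439 to 23586722 reads on genes. The deposited values are gene counts multiplied by 1 factor per library and are called normalized counts here. PBS replicate 3 stood apart from the other PBS libraries by gene length. Its median log2 difference from the mean of the other PBS libraries was 0.74 over 3531 genes with merged exons under 2000 bases and −0.53 over 3994 genes of 6000 bases or more, while the libraries labelled pIpC lay between −0.05 and 0.06 on the same measure. Counts and fold changes of the members, and the log2 differences of their ratios, are therefore given with and without PBS replicate 3. Markers of other cell types moved with the groups too. All 13 measured erythroid markers were higher in every library labelled pIpC than in every PBS library (summed normalized counts 69.2 to 187 in PBS, 4609 to 6728 in pIpC, with Slc4a1 and Rhag at 0 in all PBS libraries), as were all 13 neutrophil markers (23765 to 47883, against 1627300 to 1720800), all 12 B cell markers (146 to 309, against 1687 to 3088, Ms4a1 at 0 in PBS) and all 10 T and NK cell markers (181 to 319, against 3953 to 4565). Of 16 marrow macrophage markers, 11 were higher and 4 lower in this sense (summed 11372 to 15535 in PBS and 7401 to 9987 in pIpC, Marco at 0 in PBS), and of 7 leukocyte and myeloid identity markers, which the labelled cells should hold, 5 were higher and 1 lower (32189 to 45614, against 187320 to 188580). Most of this last sum in pIpC was Lyz2 alone (7064 to 13793 in PBS, 146460 to 150320 in pIpC). Most of the macrophage sum in PBS was Vcam1 (6015 to 9984) and Adgre1 (4156 to 4427), which were among the 4 lower in pIpC. Among all genes tested, every library labelled pIpC lay above every PBS library in 30.5% and below in 26.3%. None of the 10 members is on these lists. The part of these cell types in the results below was not tested, and in bulk RNA more cells of a type cannot be told apart from more RNA per cell. No list was made of leukemia genes. Hoxa10 and Hoxa4, named after their values were seen, had mean normalized counts of 1537 and 53.2 in PBS and 17.8 and 9.56 in pIpC. Other HOXA genes are not given, and the share of leukemia cells in each group was not tested.

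Of the 10 iron genes, 3 were higher in the libraries labelled pIpC and passed the test (Tfrc, Slc11a1 and Slc40a1), 1 was lower and passed it (Ftl1), and 6 did not pass. The test was limma on log2(normalized count + 1), with a Benjamini-Hochberg adjusted p under 0.1 over all 15020 genes, the level at which the study called genes. Among all genes tested, 25.0% (3750) passed it as higher and 20.4% (3058) as lower, so the counts of members were near the background and are not a result about the group. Quantile normalization, which moved the median of all genes to −0.12, gave 3244 genes higher and 4078 lower, with the same 4 members called in the same directions. When PBS replicate 3 was left out, 6 members were higher and 2 lower, against 34.5% and 30.6% of all genes. After removal of each library's trend with gene length (chosen after seeing the data), 3 members were higher and 1 lower, against 27.7% and 23.6%. In 5 members every library labelled pIpC lay above every PBS library (30.5% of all genes) and in 1 every such library lay below (26.3%). The median log2 fold change of the 10 members was 0.29, beside 0.01 over all genes tested, and 0.19 beside 0.01 without PBS replicate 3. With the length trend removed it was 0.10 beside 0.02.

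**Figure D1:**
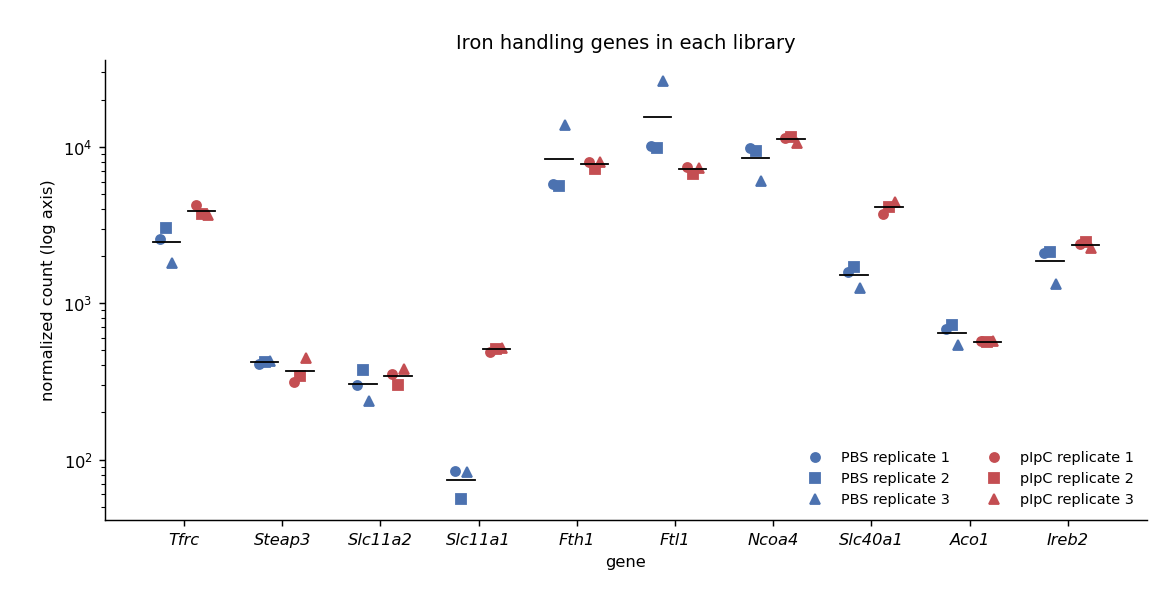
Normalized counts (log axis) of the 10 iron handling genes in each of the 6 libraries, in blue for PBS and in red for pIpC, with a bar at each group mean and a shape for each replicate number. Slc11a1 and Slc40a1 show the widest gaps between the groups, and the blue triangle, PBS replicate 3, sits far above the other PBS libraries in Fth1 and Ftl1.

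Of the uptake genes, Tfrc was higher in the libraries labelled pIpC. Its normalized counts were 2559, 3045 and 1810 in the PBS libraries and 4241, 3703 and 3643 in the libraries labelled pIpC. The groups did not overlap, and PBS replicate 3 was the lowest library. The mean rose from 2471 ± 622 to 3862 ± 329 (SD, n = 3 each), 1.56-fold, with a log2 fold change of 0.67 ± 0.20 (SE, adjusted p = 0.0416 by limma). Leaving out PBS replicate 3 gave a log2 fold change of 0.46 (adjusted p = 0.00292). The call was lost when any single library labelled pIpC was left out (adjusted p = 0.140, 0.112 and 0.105 without replicates 1, 2 and 3). Tfrc (ENSMUSG00000022797) spans chr16:32608920-32632794 on the + strand. Among the erythroid markers, with which Tfrc is commonly expressed, Hba-a1 had normalized counts of 1.73 to 4.53 in PBS and 1041 to 1664 in pIpC.

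Steap3, the ferrireductase that works beside the transferrin receptor, did not pass the test. Its values were 411, 419 and 424 in PBS and 315, 342 and 445 in pIpC, so that the groups overlapped through pIpC replicate 3. The log2 fold change was −0.20 ± 0.17 (SE, adjusted p = 0.386 by limma), and −0.19 without PBS replicate 3. Steap3 was also the single member whose spread was larger in the libraries labelled pIpC (coefficient of variation 18.6%, against 1.61% in PBS). Steap3 (ENSMUSG00000026389) lies at chr1:120190757-120272705 on the − strand.

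Slc11a2, which moves endosomal iron into the cytosol, overlapped between the groups. Its values were 298, 375 and 238 in PBS and 352, 299 and 378 in pIpC. The log2 fold change was 0.20 ± 0.21 (SE, adjusted p = 0.495 by limma), and 0.03 without PBS replicate 3. Slc11a2 (ENSMUSG00000023030) lies at chr15:100387898-100425072 on the − strand.

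Its paralogue Slc11a1 (NRAMP1), a metal transporter of the phagosome membrane in macrophages and neutrophils, showed the largest difference of the 10 genes. Normalized counts were 83.9, 55.7 and 83.7 in the PBS libraries and 488, 513 and 520 in the libraries labelled pIpC. Every library of one group was far from every library of the other. The mean rose 6.81-fold, from 74.4 ± 16.3 to 507 ± 16.9 (SD, n = 3 each), with a log2 fold change of 2.78 ± 0.21 (SE, adjusted p = 0.000129 by limma) and 2.87 without PBS replicate 3 (adjusted p = 2.06e-06). C57BL/6 mice are known to carry an Slc11a1 allele whose protein does not function, so the transcript level is no measure of transport here. Slc11a1 (ENSMUSG00000026177) spans chr1:74375195-74386062 on the + strand. The neutrophil markers, cells known for this gene, moved in the same direction, with all 13 higher in the libraries labelled pIpC.

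The ferritin chains had the highest levels per length of all 10 genes, and their comparison turned on PBS replicate 3. Fth1 had normalized counts of 5786, 5633 and 13759 in PBS and 8049, 7244 and 8023 in pIpC. The libraries labelled pIpC lay between PBS replicates 1 and 2 below and PBS replicate 3 above. With all libraries the log2 fold change was 0.02 ± 0.35 (SE, adjusted p = 0.968 by limma). Without PBS replicate 3 it was 0.44 ± 0.07 (adjusted p = 0.000595), and Fth1 was then higher in the libraries labelled pIpC. With the length trend removed and all 6 libraries kept, it was 0.08 and did not pass (adjusted p = 0.857 by limma). With all libraries the difference had no settled sign, at −0.02 after centring each library on its median log ratio, −0.13 in edgeR and −0.11 in DESeq2, none past the threshold. Fth1 (ENSMUSG00000024661) spans chr19:9980598-9985098 on the + strand.

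Ftl1 had normalized counts of 10157, 9868 and 26480 in PBS and 7483, 6739 and 7358 in pIpC. Every library labelled pIpC lay below every PBS library, also with PBS replicate 3 set aside. The mean fell from 15501 ± 9509 to 7193 ± 398 (SD, n = 3 each), with a log2 fold change of −0.95 ± 0.38 (SE, adjusted p = 0.0950 by limma). Without PBS replicate 3 the change was smaller, −0.48 ± 0.07 (adjusted p = 0.000353), and with the length trend removed it was −0.64 (adjusted p = 0.0493). The call was lost when any single library labelled pIpC was left out (adjusted p = 0.197 to 0.232). With all 6 libraries it was also lost with a pseudocount of 0.1, with no filter, with a minimum mean of 50 and with no intensity trend (adjusted p = 0.101 to 0.125 by limma). Ftl1 (ENSMUSG00000050708) lies at chr7:45457944-45459884 on the − strand.

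The balance of the 2 ferritin genes was compared as a ratio within each library, which needs no scaling between libraries. A ratio does not remove a trend with gene length, and merged exons were 1340 bases in Ftl1 and 3469 in Fth1. No ratio was computed with the length trend removed, a fit in which the log2 fold changes were 0.08 for Fth1 and −0.64 for Ftl1. Fth1 over Ftl1, as a ratio of normalized counts and not per length, was 0.570, 0.571 and 0.520 in the PBS libraries and 1.08, 1.07 and 1.09 in the libraries labelled pIpC. PBS replicate 3, in which Fth1 was 2.41 and Ftl1 2.64 times the mean of the other PBS libraries, had nearly the ratio of its group. The mean ratio was 0.553 ± 0.0292 in PBS and 1.08 ± 0.00872 in pIpC (SD, n = 3 each), a log2 difference of 0.97. The log2 difference was 0.92 without PBS replicate 3. A 2-sided exact permutation test gave p = 0.1, the smallest that 3 against 3 libraries allow, and 0.125 after Benjamini-Hochberg adjustment over the 5 ratios compared. Fth1 and Ftl1 together took 0.0823%, 0.0794% and 0.167% of the reads on genes in PBS and 0.0669%, 0.0612% and 0.0674% in pIpC. Processed copies of both genes are nearly identical to them, and the split of reads among them is uncertain. Of the annotated copies with any read, Ftl1-ps1 had a mean of 96.3 in PBS and 46.3 in pIpC and Ftl2-ps 138 and 66.9. Fth-ps2 (3.69 and 2.63) and Ftl1-ps2 (0.666 and 0.341) were near 0.

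**Figure D2:**
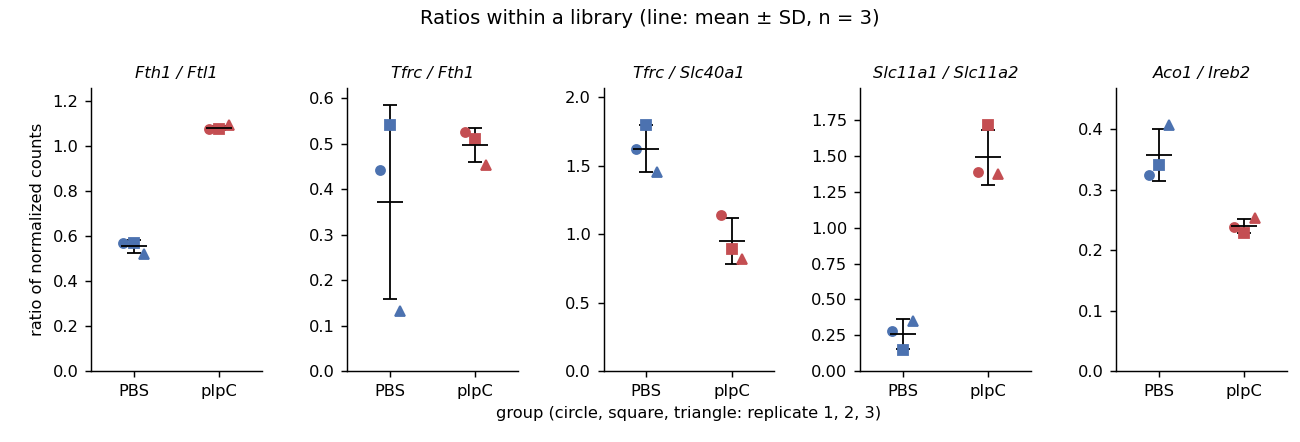
Ratios of the normalized counts of 2 genes within each library, by group, with the mean and SD (n = 3) as lines. Fth1 over Ftl1 is 0.520 to 0.571 in PBS and 1.07 to 1.09 in pIpC, and Tfrc over Fth1 is the single ratio whose groups overlap.

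Ncoa4, the cargo receptor of ferritin breakdown, had values of 9878, 9407 and 6051 in PBS and 11333, 11578 and 10605 in pIpC. The groups did not overlap, and PBS replicate 3 was by far the lowest. With all libraries the difference did not pass the test (log2 fold change 0.44 ± 0.21 SE, adjusted p = 0.149 by limma). Without PBS replicate 3 it was smaller and passed it (0.21, adjusted p = 0.0243). With the length trend removed and all 6 libraries kept, it did not pass (0.18, adjusted p = 0.166 by limma). Ncoa4 (ENSMUSG00000056234) spans chr14:32159865-32179855 on the + strand.

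The exporter Slc40a1 was higher in every library labelled pIpC. Its normalized counts were 1576, 1696 and 1247 in PBS and 3709, 4152 and 4442 in pIpC. The groups lay far apart, and the lowest library was again PBS replicate 3. The mean rose 2.72-fold, from 1507 ± 233 to 4101 ± 369 (SD, n = 3 each), with a log2 fold change of 1.45 ± 0.16 (SE, adjusted p = 0.000531 by limma) and 1.32 without PBS replicate 3 (adjusted p = 2.79e-06). The call held in every alternative run, with each library left out in turn. Slc40a1 (ENSMUSG00000025993) spans chr1:45908068-45926523 on the − strand. Slc40a1 is best known in marrow macrophages, whose markers moved both ways. Of the 16, 11 were higher, such as C1qa, a complement subunit (13.8, 41.5 and 44.1 in PBS and 523, 298 and 511 in pIpC), and Mrc1, the mannose receptor (18.2, 35.4 and 15.8, against 484, 445 and 696). The 4 that were lower included Adgre1, which encodes F4/80 (4337, 4427 and 4156, against 356, 268 and 305), and Vcam1, an adhesion molecule (9265, 9984 and 6015, against 3909, 4327 and 5096). These 4 markers were picked out after their values were seen.

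The iron regulatory proteins did not pass the test with all libraries. Aco1, whose product is a cytosolic aconitase when iron is plentiful and IRP1 when it is not, had values of 682, 724 and 543 in PBS and 570, 561 and 571 in pIpC. The 3 libraries labelled pIpC lay close together and above PBS replicate 3 alone. The log2 fold change was −0.18 ± 0.15 (SE, adjusted p = 0.369 by limma), and −0.31 without PBS replicate 3 (adjusted p = 0.0111), where Aco1 was lower. Ireb2, whose product IRP2 is degraded when iron is plentiful, had values of 2096, 2123 and 1335 in PBS and 2388, 2450 and 2252 in pIpC, with no overlap. Its log2 fold change was 0.38 ± 0.20 (SE, adjusted p = 0.177 by limma), and 0.16 without PBS replicate 3 (adjusted p = 0.0598). With the length trend removed, neither gene passed (Aco1 −0.23, adjusted p = 0.183, and Ireb2 0.13, adjusted p = 0.273, by limma). Aco1 (ENSMUSG00000028405) lies at chr4:40143081-40198338 and Ireb2 (ENSMUSG00000032293) at chr9:54863789-54912530, both on the + strand.

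**Figure D3:**
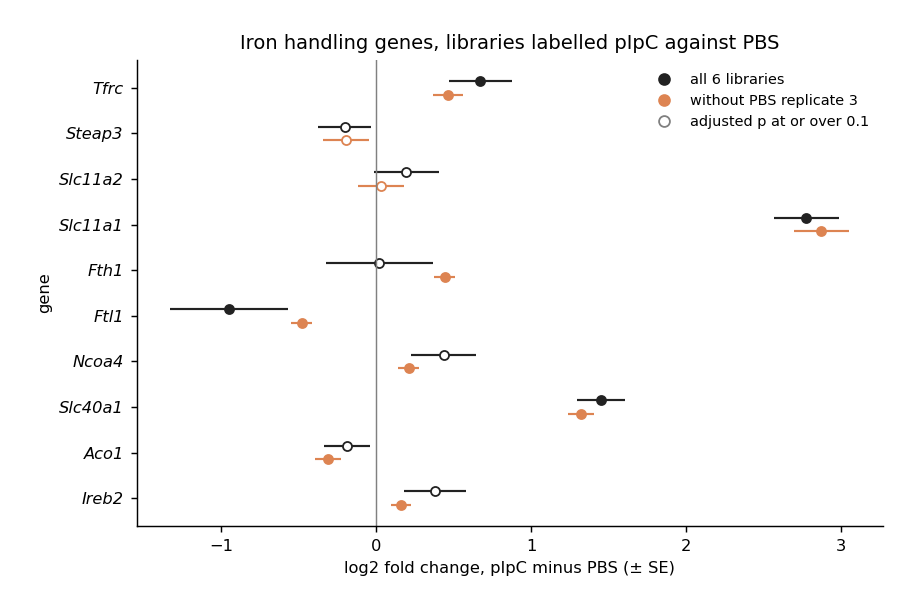
Log2 fold change of each iron handling gene, libraries labelled pIpC minus PBS, with SE bars, for all 6 libraries (black) and without PBS replicate 3 (orange). Filled points passed an adjusted p under 0.1. Slc11a1 (2.78) and Slc40a1 (1.45) passed it in both, and Fth1 moved from 0.02 to 0.44.

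The other 4 ratios within a library set uptake against storage, uptake against export, and paralogous genes against each other. Tfrc over Fth1 was 0.442, 0.541 and 0.132 in PBS and 0.527, 0.511 and 0.454 in pIpC, and the groups overlapped (exact permutation p = 0.5). Tfrc over Slc40a1 was 1.62, 1.79 and 1.45 in PBS and 1.14, 0.892 and 0.820 in pIpC. Both genes were higher in the libraries labelled pIpC, and the exporter by more, with a log2 difference in the ratio of −0.78 and no overlap. Slc11a1 over Slc11a2 was 0.282, 0.149 and 0.352 in PBS and 1.39, 1.71 and 1.38 in pIpC, a log2 difference of 2.60. Aco1 over Ireb2 was 0.325, 0.341 and 0.407 in PBS and 0.239, 0.229 and 0.253 in pIpC, a log2 difference of −0.57. These last 3 ratios did not overlap between the groups, and each had the smallest exact permutation p that the design allows, 0.1 (0.125 adjusted over the 5 ratios). Without PBS replicate 3 the log2 difference for Tfrc over Fth1 was 0.02, against 0.65 with all libraries. For the last 3 ratios it was then −0.86, 2.86 and −0.47, in the order given.

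Spread within a group was larger in PBS than in the libraries labelled pIpC for 9 of the 10 genes. The coefficient of variation in PBS ran from 1.61% (Steap3) to 61.3% (Ftl1), and in pIpC from 0.949% (Aco1) to 18.6% (Steap3). PBS replicate 3 was the lowest PBS library for 6 genes, the highest for 3 and between the others for Slc11a1. Its value over the mean of PBS replicates 1 and 2 was 2.64 for Ftl1 (1340 bases of merged exons) and 2.41 for Fth1 (3469 bases), 1.2 for Slc11a1 (3705 bases) and 0.773 for Aco1 (4496 bases). For the 6 longest members it was 1.02 in Steap3 and 0.628 (Ncoa4) to 0.762 (Slc40a1) in the rest. The 2 ferritin genes were thus the shortest members and the ones raised most in that library, and the part of length in their difference was not tested beyond the fit with the length trend removed.

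**Figure D4:**
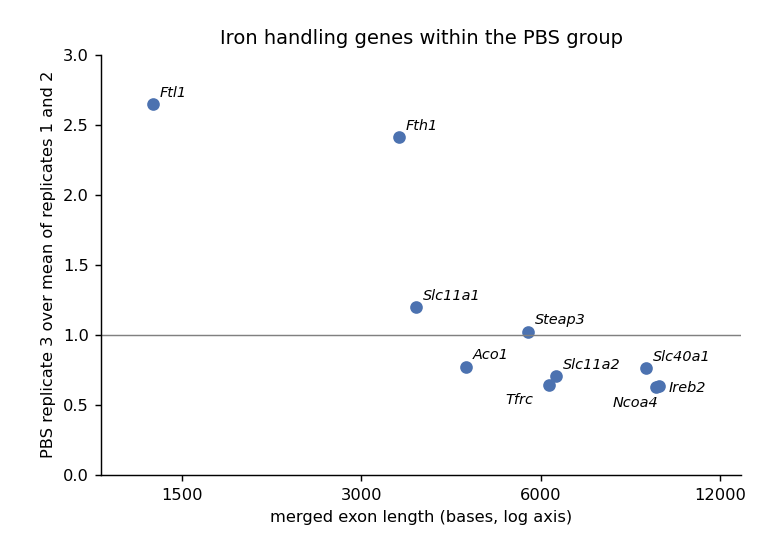
Normalized count of PBS replicate 3 over the mean of PBS replicates 1 and 2 for each iron handling gene, against the merged exon length in bases (log axis), with a line at 1. Ftl1 (2.64) and Fth1 (2.41), the shortest genes, lie highest, and Ncoa4 (0.628), Ireb2 (0.633) and Tfrc (0.646) lowest.

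Levels were compared between genes as reads per kilobase of merged exons per 1000000 reads on genes. In PBS the means ran from 530 ± 253 for Ftl1, 111 ± 46.4 for Fth1, 44.3 ± 15.1 for Ncoa4 and 19.6 ± 6.71 for Tfrc down to 0.960 ± 0.201 for Slc11a1 (SD, n = 3 each). Between them lay Ireb2 (9.59), Slc40a1 (8.16), Aco1 (7.04), Steap3 (3.52) and Slc11a2 (2.33). Neighbours in this order overlapped between Ireb2 and Slc40a1 and between Slc40a1 and Aco1. In pIpC the order was Ftl1 (234 ± 11.8), Fth1 (97.6 ± 5.39), Ncoa4 (52.0), Tfrc (27.2), Slc40a1 (19.9), Ireb2 (10.9), Slc11a1 (5.97), Aco1 (5.50), Steap3 (2.80) and Slc11a2 (2.35), and the last 2 alone overlapped. Slc11a1 was last in PBS and the seventh in pIpC. The place of Slc40a1 depended on the length used, since per kilobase of the longest transcript its mean level was 18.7 in PBS, above Ireb2 (15.7), and 45.5 in pIpC, above Tfrc (34.4). On that length Slc11a2 (3.39) also came before Steap3 (3.11) in pIpC. The ferritin chains stayed first in both groups, although per kilobase of merged exons the level of Ftl1 was 4.76 times that of Fth1 in PBS and 2.40 times in pIpC. The size of this ratio also depended on the length used. Per kilobase of the longest transcript the mean levels of Ftl1 and Fth1 were 734 and 188 in PBS and 324 and 164 in pIpC.

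The genes whose pattern over the 6 libraries was most like that of Tfrc, by Pearson correlation of log2 values among 10486 other genes with a mean of at least 100, were Top1 (0.998), Gosr2 (0.996) and Mlec (0.995). For Slc40a1 they were Pafah2, Gtpbp2 and Gtpbp1 (all 0.999). These are descriptions over 6 libraries that fall into 2 groups, and 330 genes for Tfrc and 1161 for Slc40a1 exceeded a correlation of 0.95.

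Other genes of iron and heme handling were taken from 5 lists of 71 genes in all, of which 70 were in the table and 55 were tested. Of these, 14 were called higher and 8 called lower, and 33 did not pass, with a median log2 fold change of 0.02, beside 25.0% higher, 20.4% lower and a median of 0.01 over all genes tested. When PBS replicate 3 was left out, 27 were higher and 11 lower, against 34.5% and 30.6% of all genes.

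Among 10 tested genes of other uptake routes, 5 were higher and 1 lower, beside 25.0% and 20.4% of all genes. Lcn2, the siderophore-binding lipocalin of neutrophil granules, was highest, with 1487, 2120 and 2887 in PBS and 131850, 134070 and 133140 in pIpC (log2 fold change 5.99 ± 0.25 SE, adjusted p = 1.77e-05 by limma). The neutrophil markers moved the same way. Slc39a14 (ZIP14), an importer of iron not bound to transferrin, was lowest, with 205, 204 and 172 in PBS and 80.8, 60.3 and 80.3 in pIpC (−1.39 ± 0.21, adjusted p = 0.00244). The other 4 that passed, all higher and named after their values were seen, were Tfr2 (4.51), the second transferrin receptor, Cd163 (3.18), the scavenger of hemoglobin bound to haptoglobin, Lrp1 (2.46), the receptor for heme bound to hemopexin, and Hfe (1.92), the partner of the transferrin receptors that is mutated in hemochromatosis.

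Of 6 tested genes around storage, Atg7, which is needed to form autophagosomes, was the single one to pass, with 773, 728 and 895 in PBS and 1437, 1721 and 1580 in pIpC (0.98 ± 0.14 SE, adjusted p = 0.00172 by limma). Atg5, of the same conjugation machinery, had the lowest value (−0.08, adjusted p = 0.729). Of 8 tested genes of export and its control, 4 were higher and 1 lower. Beside these counts, and the 1 of 6 around storage, stand 25.0% higher and 20.4% lower among all genes. Nedd4, a ubiquitin ligase, was highest, with 1410, 1560 and 824 in PBS and 6550, 6461 and 6408 in pIpC (2.41 ± 0.24 SE, adjusted p = 0.000395). Erfe, the erythroid hormone that lowers hepcidin, was lowest, with 45.9, 47.6 and 41.9 in PBS and 13.97, 13.3 and 11.6 in pIpC (−1.73 ± 0.26 SE, adjusted p = 0.00259), while the erythroid markers were higher. The other 3 that passed, named after their values were seen, were Nfe2l2 (1.71), a transcription factor known to act on ferritin and ferroportin genes, Cp (1.23), a ferroxidase, and Fbxl5 (1.11), the iron-sensing subunit of the ligase that degrades IRP2.

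Of 8 tested genes of heme import, breakdown and export, 3 were higher, beside 25.0% of all genes. Hmox1, the inducible heme oxygenase, was highest, with 147, 180 and 174 in PBS and 1211, 1201 and 1884 in pIpC (3.06 ± 0.21 SE, adjusted p = 9.57e-05 by limma). Blvra, a biliverdin reductase, had the lowest value and did not pass (−0.73, adjusted p = 0.119), with PBS replicate 3 at 1060, above 444 and 521 in the other PBS libraries. With that library left out, 5 were higher and 1, Blvra, lower, against 34.5% and 30.6% of all genes. In the largest list, 23 genes of mitochondrial iron and iron-sulfur cluster assembly, 1 was higher and 6 lower, against 25.0% and 20.4% of all genes. Abcb10, a transporter of the inner mitochondrial membrane, was the one that was higher, with 806, 791 and 533 in PBS and 1550, 1387 and 1425 in pIpC (1.06 ± 0.19 SE, adjusted p = 0.00486). Fdx1, a mitochondrial ferredoxin, was lowest, with 283, 282 and 458 in PBS and 158, 119 and 124 in pIpC (−1.32 ± 0.25 SE, adjusted p = 0.00645). Without PBS replicate 3 the count in this list was 8 higher and 7 lower, near the 34.5% and 30.6% of all genes in that setting.

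**Figure D5:**
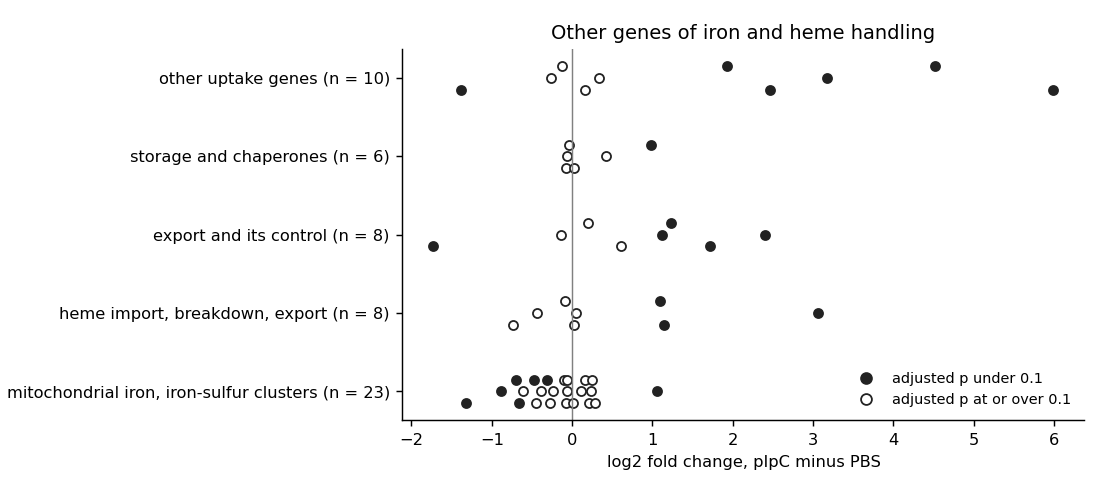
Log2 fold changes, libraries labelled pIpC minus PBS, of the 55 tested genes of the 5 other lists of iron and heme handling, 1 point per gene, filled where the adjusted p was under 0.1. The points reach from −1.73 (Erfe) to 5.99 (Lcn2), and 16 of the 23 points for mitochondrial iron and iron-sulfur cluster assembly are open.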

How the data were processed

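RNA from 6 mouse bone marrow samples (3 PBS, 3 pIpC) was extracted on RNeasy columns, poly(A)-selected and made into TruSeq libraries, unstranded per the labels and stranded per the study's methods for sorted mouse cells. Which applied was not settled, and without strand a gene and its antisense partner cannot be told apart. The deposited values are a signal per gene: whole gene counts that the authors multiplied by 1 factor per library. The submitters' processing notes name HISAT2 2.2.1, SAMtools, Subread featureCounts, edgeR and GRCm38, whereas the study's methods for sorted mouse cells name nf-core/rnaseq 3.0 and DESeq2, and which made these values was not settled. Reads were recovered by dividing by the step of each library: 100% of the values above 0 came out whole within 0.02 reads. Depth was 19277439 to 23586722 reads on genes. Symbols were matched for 55141 of 55487 genes through GENCODE M21. Of 143 genes on the pathway and marker lists, 3 were matched through RefSeq synonyms (Tf, Hjv and Ciao3) and 2 were not matched (Fth17a and Ahsp), and 1 further marker is not reported here.

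Values were tested as log2(normalized count + 1), a scale that understates changes of low genes, in limma 3.58.1 (R 4.3.3) with its variance trend switched on, over the 15020 genes averaging 10 or more, and called at an adjusted p under 0.1. It was tested on simulated data first. Alternatives were an adjusted p under 0.05, pseudocounts of 0.1 and 10, no filter, quantile normalization, a minimum mean of 50, median centring, no intensity trend, a replicate block, leaving out each library, and edgeR 4.0.16 and DESeq2 1.42.0 on the recovered reads. A loess fit (span 0.3) against log2 merged exon length, subtracted from each library's deviations, was added after seeing the data, alone and with the block. Ratios were tested with SciPy 1.17.1. The named genes are all 10 members, the highest and lowest tested gene of each pathway list, the 3 genes most correlated with Tfrc and with Slc40a1, ferritin copies with any read, and Brd9, and others are said to have been named after their values were seen. The members, lists and rules were chosen with earlier results of these data known. No protein comparison was made, as no protein sequences were used here.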

Additional observations from a re-analysis of the deposited data

How the results depend on the processing

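Slc11a1 and Slc40a1 kept their direction and their call in all 19 alternatives. Over the 10 iron genes and these alternatives, 168 of 190 log2 fold changes kept direction and side of the threshold, 11 were no longer called, 4 became called and 7 changed sign. In limma, Ftl1 was not called at an adjusted p under 0.05 (−0.95, adjusted p = 0.0950), with a pseudocount of 0.1 (−0.95, adjusted p = 0.101), with no filter (−0.95, adjusted p = 0.104), with a mean of at least 50 (−0.95, adjusted p = 0.101) or with no intensity trend (−0.95, adjusted p = 0.125). The count of members lower in pIpC was then 0 in each, against 1 at an unadjusted p under 0.05 (0 with no intensity trend) and 1 each by edgeR and DESeq2. Genes called lower in those limma settings, in the order given, numbered 2222, 3030, 3215, 2485 and 2881. In edgeR and DESeq2 they numbered 3336 and 3628. The genes tested were 27901 with no filter, 11672 with a mean of at least 50 and 15020 otherwise. Fth1 changed sign with median-centred log ratios (−0.017), edgeR (−0.13) and DESeq2 (−0.11), never past the threshold. The cause was not tested.

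Leaving out 1 library at a time gave log2 fold changes of 0.46 to 0.84 for Tfrc, −0.20 to 0.44 for Fth1, −1.19 to −0.48 for Ftl1, 0.21 to 0.57 for Ncoa4, −0.31 to −0.10 for Aco1 and 0.16 to 0.50 for Ireb2. In these runs 2 to 6 members were higher and 0 to 2 lower. Beside them stand 2790 to 5186 higher and 1860 to 4597 lower of the 15020 genes tested. Fth1, Ncoa4, Ireb2 and Aco1 became called without PBS replicate 3, but not with the length trend removed. Tfrc and Ftl1 lost their calls without any 1 of the pIpC libraries. The number of genes changed was 6808 with all libraries, 4650 to 9783 with 1 left out (9783 without PBS replicate 3), 6901 in edgeR and 7451 in DESeq2. Deviations of libraries with the same replicate number from their group means had correlations of −0.12, 0.14 and 0.04. PBS replicate 3 stood apart by gene length, so these values cannot settle whether libraries of 1 number were paired. The sample titles give only the number. With the replicate block 6095 genes and the same members were called (Tfrc 0.67, adjusted p = 0.0507 by limma). Counting error weighs most on Slc11a1 in PBS, the member with the lowest normalized counts (55.7 to 83.9).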
